A study of Homo sapiens with 6 samples.

Results

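The genes described here are PDCD4, BTG2, PELI1, RECK, MARCKS, KRIT1 and STAG2, which are widely cited as direct targets of the microRNA miR-21. They were chosen by symbol, with earlier results of these data known, and all 7 were found among 28979 gene IDs. Messenger RNA of MDA-MB-231, a human triple-negative breast cancer cell line with mesenchymal features, was profiled by 3 libraries labelled Ang and 3 labelled Con, 6 in all. The series design describes exposing these breast cancer cells to exosomes, small vesicles shed by cells, that came from hypertrophic or from normal cardiomyocytes, with the aim of finding microRNA targets. No label says what Ang and Con stand for, and the sources used here give no dose, duration, passage or clone, so both groups keep their label names. Separate cultures are not stated either, so the p-values reflect only how far these libraries spread, and that spread may be technical. The error of each gene was also drawn toward that of all tested genes, so it is not the spread of its own libraries alone.

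MicroRNAs are short RNAs that guide Argonaute proteins to messenger RNAs, mostly through pairing between the seed near the 5′ end of the microRNA and a site in the 3′ untranslated region (3′ UTR). The paired messenger RNA is then translated less and is often shortened at its poly(A) tail and degraded. miR-21 is abundant in many carcinomas, breast cancer among them, where it is classed as an oncogenic microRNA, and it is raised in the stressed heart. Its known targets include brakes on translation, proliferation and matrix breakdown. The libraries were made from poly(A) RNA, so mature miR-21 itself was not measured.

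The mature miR-21-5p strand is shown first because every site below was defined from it. The sequence is from RefSeq (GRCh38.p14, chr17:59841273-59841294, plus strand), with the seed, bases 2 to 8, in capitals.
hsa-miR-21-5p: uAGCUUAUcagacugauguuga

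The motifs searched were its reverse complements ATAAGCTA (8mer), ATAAGCT (7mer-m8), TAAGCTA (7mer-A1) and TAAGCT (6mer), where each shorter motif lies within the 8mer and a site was given its longest class. They were searched on the transcript strand only, in the longest annotated 3′ UTR of each gene in GENCODE release 29 (GRCh38). An 8mer was present in 5 of the 7 members. The 22 bases that would face the microRNA are shown for every 8mer of the members and for the strongest match in BTG2, 5′ to 3′ on the transcript strand, with the matching bases in capitals.
PDCD4 site: agtggaatattctaATAAGCTA
PELI1 site: tacattataaatttATAAGCTA
RECK site: tttcacagtttgaaATAAGCTA
STAG2 site: taaacaatttgatgATAAGCTA
KRIT1 first site: tatataatatcctcATAAGCTA
KRIT1 second site: tgaatgtgctattcATAAGCTA
BTG2 site: gtagtagtatgtttgTAAGCTA

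In genome coordinates (GRCh38) the PDCD4 window is chr10:110898316-110898337 on the plus strand and the PELI1 window is chr2:64094659-64094680 on the minus strand. The RECK window is chr9:36124169-36124190 and the STAG2 window is chrX:124100784-124100805, both on the plus strand. KRIT1 has its windows at chr7:92200235-92200256 and chr7:92199459-92199480 on the minus strand, and BTG2 has its 7mer-A1 window at chr1:203309462-203309483 on the plus strand. Outside the shared seed match the windows differ. Aligned to the microRNA without gaps, Watson-Crick pairs covered 15 of 22 positions in STAG2, 14 and 13 in the KRIT1 windows, 13 in PDCD4, 12 in PELI1, 11 in BTG2 and 10 in RECK.

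**Figure D1:**
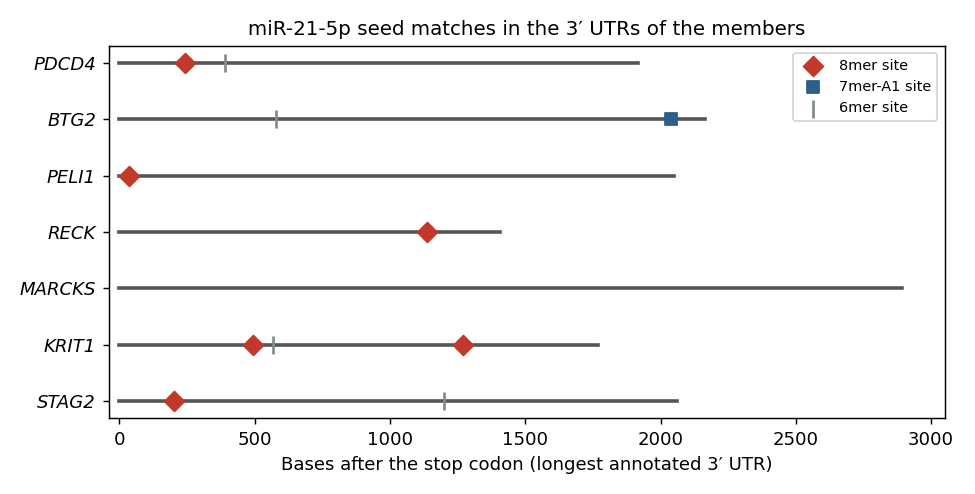
Horizontal lines are the longest annotated 3′ UTRs of the 7 genes, drawn to scale in bases after the stop codon, and marks are matches to the miR-21-5p seed by class. The 8mer of PELI1 lies 36 bases after the stop codon, KRIT1 carries 2 8mers, BTG2 has a 7mer-A1 near the end of its UTR, and MARCKS has no mark.

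The sites lay at different places along the UTRs. The 8mer began 36 bases after the stop codon in PELI1, 201 bases in STAG2, 242 bases in PDCD4 and 1138 bases in RECK. KRIT1 had its 8mers at bases 494 and 1270 of a UTR of 1767 bases, and the 7mer-A1 of BTG2 began at base 2039 of 2164. None of the 4 motifs was in the 2892 bases searched for MARCKS, which says only that these letters are absent from that window.

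Among 15790 genes with an annotated 3′ UTR, 2.77% had an 8mer, 7.3% a 7mer-m8 as their best match and 4.43% a 7mer-A1. The 8mer share was 2.73% over the 4501 genes whose UTR was as long as those of the members (1406 to 2892 bases). Another 8mer in the same UTR was rare, with 2 or more in 22 genes (0.139%), KRIT1 among them. As the members are known for such sites, their higher share describes how they came to be chosen. The members' UTRs were also poor in G and C. GC content was 29.5% in STAG2, between 32.4% and 34% in PDCD4, PELI1, RECK, MARCKS and KRIT1, and 46.8% in BTG2, against a median of 44.1% over all genes.

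Some facts of the whole series bear on each value. Total counts per library were 3482629 to 3961442 in Ang and 3369212 to 5437190 in Con, and a count of 0 allows up to 3 counts, or 0.552 to 0.89 CPM (counts scaled to a library of 1000000), for counting error only. Of the markers of the cell line, VIM, CD44, FN1, CAV1, AXL and ZEB1 had counts in every library, with a summed level of 2340 to 2480 CPM in Ang and 1860 to 2470 CPM in Con. ESR1, PGR, CDH1 and EPCAM, expected to be low, summed to 10.3 to 12.1 CPM in Ang and 10.1 to 12.5 CPM in Con. Most of that sum was EPCAM, with 30 to 60 counts per library and means of 9.76 CPM in Ang and 9.84 CPM in Con. Of 10 cardiomyocyte markers found, 2 (TTN and NPPA, which have opposite-strand exon overlap) had a count in every library, and MYH6, MYL2 and RYR2 had at most 1 count in any library. The list summed to 216 to 259 CPM in Ang and 205 to 310 CPM in Con, nearly all of it TTN (means of 229 CPM in Ang and 258 CPM in Con). Leukocyte, endothelial and fibroblast markers summed to at most 1.44, 9.53 and 6.56 CPM in Ang, and to at most 2.32, 9.44 and 10.3 CPM in Con. Only 1 of 4 leukocyte markers (CD68) was found, and most of the endothelial sum was PECAM1, with 21 to 39 counts per library.

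The counts carry a limit of strand. For 250 non-coding genes with at least 90% of their exon bases under a coding gene of the other strand that had 300 or more counts, counts per exon base were a median of 32.5 times those of the coding gene. By library this ratio was 32.9 to 35.4 in Ang, and 39.3, 23.2 and 41.1 in Con replicates 1 to 3. Over all libraries it was above 1 in 88.8% of these pairs. Counts of a coding gene are thus uncertain as a measure of its own RNA, and how far this touches the members was not tested. BTG2, RECK, MARCKS and KRIT1 have no exon base under an exon of the other strand. That alone does not show that their counts are free of this limit. All genes without such overlap together held 23.8% to 25.5% of the counts in Ang and 21.7% to 28.7% in Con. Con replicate 2 stood apart in the ratio of non-coding to coding counts, and also in library quality weight (0.416, against 1.34 to 1.43 in Ang and 0.936 to 0.965 in the other Con libraries). The members and the gene lists are therefore given with and without it. In bulk RNA, fewer cells expressing a gene and less RNA per cell cannot be told apart.

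Ang and Con did not differ past the threshold in any tested member, by any tool run. The 6 members with enough counts to be tested gave 0 calls at an adjusted p of 0.05 by edgeR's quasi-likelihood test with Benjamini-Hochberg adjustment over 14547 genes. Over all tested genes 0% were called. The unadjusted p was under 0.05 for 0 members and for 494 genes (3.4%) in edgeR, and DESeq2 and limma-voom likewise called 0 genes. BTG2 did not pass the low-count filter. Of the 6 tested members, 4 had a positive and 2 a negative log2 fold change (Ang minus Con), with a median of 0.04, beside 49.2% positive values and a median of -0.01 over all tested genes. Leaving out Con replicate 2, 3 of 6 were positive, with a median of -0.03, and 0 were called, while 40 of all tested genes (0.269%) were called.

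**Figure D2:**
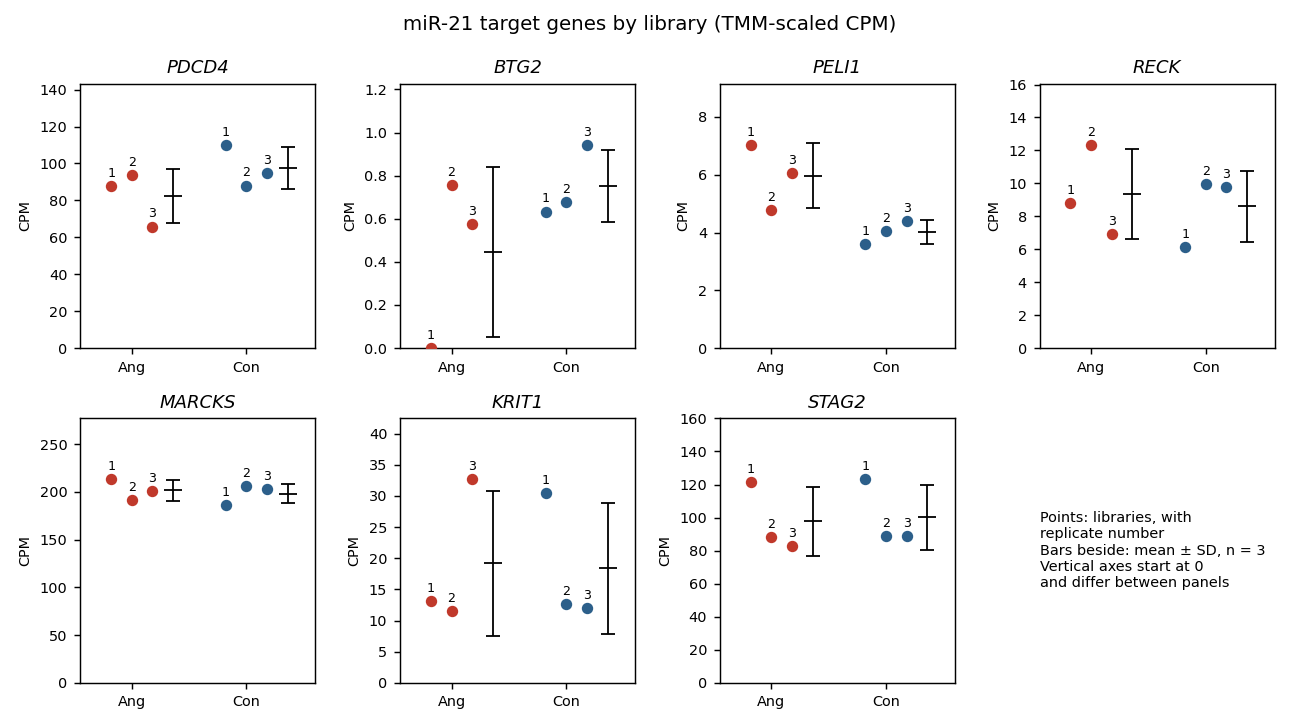
TMM-scaled CPM (TMM is a trimmed-mean correction for library composition) of the 7 genes in the 3 Ang and 3 Con libraries, with replicate numbers on the points and the mean ± SD beside them. Ang and Con libraries overlap in PDCD4, BTG2, RECK, MARCKS, KRIT1 and STAG2, while the 3 Ang libraries of PELI1 (4.79 to 7.04 CPM) lie above its Con libraries (3.59 to 4.4 CPM).

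The members spanned a wide range of counts per exon base. With the limit of strand given above, this order describes the counts and may not be the order of the RNA levels. Per kilobase of annotated exon, MARCKS was highest at a mean of 46.8 ± 2.27 CPM (SD over all 6 libraries), then PDCD4 at 19.8 ± 3.16, STAG2 at 12.1 ± 2.24, KRIT1 at 3.02 ± 1.6, RECK at 1.49 ± 0.373, PELI1 at 1.21 ± 0.318 and BTG2 at 0.217 ± 0.116. MARCKS lay above PDCD4, STAG2 above KRIT1 and PELI1 above BTG2 with no overlap of their library ranges. PDCD4 was above STAG2 in 6 of 6 libraries although the ranges overlapped. KRIT1 was above RECK in 5 and RECK above PELI1 in 4, so the place of RECK is not fixed by these libraries. KRIT1 (at least 1.87 CPM per kilobase) lay above PELI1 (at most 1.71) with no overlap. On this per-kilobase scale MARCKS exceeded 96.1% of the tested coding genes, PDCD4 89.3%, STAG2 82.4%, KRIT1 44.9%, RECK 22.9% and PELI1 17.6%.

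PDCD4 encodes a tumour suppressor that binds the helicase eIF4A and holds back translation initiation, and it is the most cited miR-21 target in breast cancer cells. The gene (ENSG00000150593) lies on chromosome 10 (110871795 to 110900006, plus strand). It had 88.0, 93.5 and 65.9 CPM in Ang replicates 1 to 3, against 110.2, 88.1 and 94.7 CPM in Con replicates 1 to 3. Ang replicate 3 was the lowest and Con replicate 1 the highest, and the others fell between 88.0 and 94.7 CPM in both groups. The means were 82.5 ± 14.7 CPM in Ang and 97.7 ± 11.4 CPM in Con (SD, n = 3 each). The log2 fold change was -0.24 ± 0.18 (SE), with a 95% interval of 0.659 to 1.085 for the fold and an unadjusted p of 0.186 in edgeR (adjusted p 0.999).

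The PDCD4 value without Con replicate 2 was -0.31 ± 0.16, with an unadjusted p of 0.053 and an adjusted p of 0.464 in edgeR. Exons of BBIP1, a gene of the ciliary BBSome complex on the other strand, cover 28.1% of the PDCD4 exon bases. With the limit of strand given above, counts of PDCD4 may hold reads of BBIP1, and how many was not tested. BBIP1 had 101.5 ± 12.4 CPM in Ang and 99.98 ± 14.1 CPM in Con (SD, n = 3 each), and a log2 fold change of 0.03 ± 0.18. Of the PDCD4 partners, EIF4G1, the scaffold that carries eIF4A, had 333 ± 17.9 CPM in Ang and 294 ± 55.3 CPM in Con. EIF4A2, a paralog of eIF4A1, had 167 ± 17.4 CPM in Ang and 138 ± 15.3 CPM in Con (0.28 ± 0.17). Of 7 partners listed, 6 were tested, 0 were called and 4 had positive values.

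BTG2, a p53-induced gene that slows the cell cycle and recruits the CCR4-NOT deadenylase, was at the limit of detection in these counts. The gene (ENSG00000159388) lies on chromosome 1 (203305491 to 203309602, plus strand). It had 0, 3 and 2 counts in Ang replicates 1 to 3, against 3, 4 and 3 counts in Con replicates 1 to 3. With 5 counts in all over Ang and 10 over Con, all but Con replicate 2 were at or under the limit of 3 counts, so no fold is given. A difference between the groups was not detectable at these counts, which carry the limit of strand given above.

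The deadenylase genes that BTG2 acts through were well counted. CNOT8, a catalytic subunit gene, had 39.0 ± 4.65 CPM in Ang and 31.4 ± 1.96 CPM in Con (0.31 ± 0.23), with all Ang above all Con libraries, as in 3.62% of tested genes. Its paralog CNOT7 had 52.9 ± 2.13 CPM in Ang and 59.7 ± 13.1 CPM in Con (-0.17 ± 0.20). PABPC1, the poly(A)-binding protein gene, which has near-identical pseudogene copies and so uncertain counts, had 688 ± 19.1 CPM in Ang and 641 ± 60.2 CPM in Con. All 9 partners of BTG2 were tested, 0 were called, and 5 had positive values.

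PELI1 encodes an E3 ubiquitin ligase of Toll-like and interleukin-1 receptor signalling. The gene (ENSG00000197329) lies on chromosome 2 (64092652 to 64144454, minus strand). Its counts were 24, 19 and 21 in Ang replicates 1 to 3, against 17, 24 and 14 in Con replicates 1 to 3. After scaling for depth these were 7.04, 4.79 and 6.07 CPM in Ang, against 3.59, 4.06 and 4.4 CPM in Con. All Ang libraries were thus above all Con libraries, the only such case among the 6 tested members, beside 3.62% of all tested genes with Ang higher and 8.16% with no overlap in either direction.

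The log2 fold change of PELI1 was 0.57 ± 0.56, the widest error among the members, with a 95% interval of 0.688 to 3.2 for the fold and an unadjusted p of 0.313 in edgeR (adjusted p 0.999). It was 0.58 ± 0.61 without Con replicate 2. IRAK1, a kinase that PELI1 ubiquitinates, had 56.8 ± 7.06 CPM in Ang and 44.5 ± 10.2 CPM in Con (0.35 ± 0.21). PELI3, a paralog, had 15.9 ± 4.47 CPM in Ang and 20.05 ± 3.04 CPM in Con (-0.33 ± 0.30), with 18.7% of its exon bases under exons on the other strand. Of 7 partners 6 were tested, 0 were called and 4 had positive values.

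RECK encodes a membrane-anchored inhibitor of matrix metalloproteases and is often lost in invasive tumours. The gene (ENSG00000122707) lies on chromosome 9 (36036433 to 36124451, plus strand). It had 8.8, 12.4 and 6.93 CPM in Ang replicates 1 to 3, against 6.12, 9.97 and 9.75 CPM in Con replicates 1 to 3. The lowest value was in Con replicate 1 and the highest in Ang replicate 2, and the groups overlapped throughout. The means were 9.36 ± 2.75 CPM in Ang and 8.62 ± 2.16 CPM in Con (SD, n = 3 each), and the log2 fold change was 0.13 ± 0.41, with an interval of 0.628 to 1.9 for the fold. It was 0.26 ± 0.45 without Con replicate 2, and -0.13 without Ang replicate 2.

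Of the proteases that RECK restrains, MMP14 and ADAM10 were well counted and MMP9 had few counts. MMP14, the membrane-type metalloprotease gene, had 388 ± 33.4 CPM in Ang and 361 ± 69 CPM in Con. ADAM10, a sheddase gene, had 125 ± 5.41 CPM in Ang and 99.1 ± 13.4 CPM in Con (0.33 ± 0.18). Its unadjusted p was 0.0647 and its adjusted p 0.999 in edgeR. All Ang libraries were above all Con libraries for ADAM10, as in 3.62% of tested genes. MMP9, the gelatinase B gene, had 0, 22 and 1 counts in Ang replicates 1 to 3, against 19, 27 and 8 in Con replicates 1 to 3, so its Ang level rests on replicate 2. The log2 fold change of MMP9 was -0.89 ± 0.75, and -4.42 without that library, and 18.4% of its exon bases lie under exons of the other strand. Of 6 partners of RECK, 5 were tested, 0 were called and 3 had positive values.

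MARCKS encodes a protein kinase C substrate that links the plasma membrane and actin. The gene (ENSG00000277443) lies on chromosome 6 (113857362 to 113863471, plus strand) and no exon on the other strand overlaps it. It had 213, 191 and 201 CPM in Ang replicates 1 to 3, against 186, 206 and 203 CPM in Con replicates 1 to 3. The values were within a narrow band in both groups, with means of 202 ± 11 CPM in Ang and 198 ± 10.3 CPM in Con (SD, n = 3 each). The log2 fold change was 0.03 ± 0.17, and the 95% interval of 0.804 to 1.29 for the fold was the narrowest of the 6 tested members. The value was 0.06 ± 0.13 without Con replicate 2.

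Of the MARCKS partners, the paralog MARCKSL1 had 12.1 ± 2.35 CPM in Ang and 17.2 ± 4.2 CPM in Con (-0.51 ± 0.33). PRKCA, a protein kinase C gene, had 39.3 ± 8.28 CPM in Ang and 31.7 ± 4.64 CPM in Con (0.31 ± 0.24). The 5 listed partners were all tested, with 0 calls and 4 positive values.

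KRIT1 encodes the CCM1 scaffold protein, whose loss causes cerebral cavernous malformations of the vasculature. The gene (ENSG00000001631) lies on chromosome 7 (92198969 to 92246166, minus strand). Its values were 13.2, 11.6 and 32.6 CPM in Ang replicates 1 to 3, against 30.4, 12.7 and 11.95 CPM in Con replicates 1 to 3. A single library in each group, Ang replicate 3 and Con replicate 1, stood well above the other 4, which lay between 11.6 and 13.2 CPM. In raw counts KRIT1 had 113 in Ang replicate 3 and 144 in Con replicate 1, and 38 to 75 in the others.

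KRIT1 averaged 19.2 ± 11.7 CPM in Ang and 18.4 ± 10.5 CPM in Con (SD, n = 3 each), and the log2 fold change was 0.05 ± 0.31, with an interval of 0.68 to 1.57 for the fold. That value rests on the pair of high libraries. Its SE draws on all tested genes and was 0.45 in DESeq2. It was -0.57 without Ang replicate 3, 0.62 without Con replicate 1 and -0.18 ± 0.37 without Con replicate 2. On the same strand, exons of the coding gene ENSG00000285953 cover 41% of the KRIT1 exon bases, but that gene was not found among the gene IDs. Whether the submitters' annotation held it is not known, so an effect on KRIT1 counts was not tested. ENSG00000243107, also on the same strand, covers 6.91% and had 4 counts in Con replicate 3 and 0 in the others. No exon on the other strand overlaps KRIT1.

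Among the partners of KRIT1, none was called. ITGB1BP1, the integrin regulator that binds KRIT1, had 633 ± 41.4 CPM in Ang and 628 ± 142 CPM in Con, with 33.1% of its exon bases under exons on the other strand. CCM2, the next scaffold of the complex, had 18 ± 4.05 CPM in Ang and 14.5 ± 3.23 CPM in Con (0.30 ± 0.31). PDCD10, also known as CCM3, had 36.8 ± 9.28 CPM in Ang and 41.6 ± 5.49 CPM in Con (-0.17 ± 0.23). Of 10 partners, 9 were tested, 0 were called and 5 had positive values.

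STAG2 encodes a subunit of cohesin, the ring that holds sister chromatids together and shapes chromatin loops, and it is mutated in several cancers. The gene (ENSG00000101972) lies on chromosome X (123960212 to 124422664, plus strand). It had 122, 88.5 and 82.9 CPM in Ang replicates 1 to 3, against 123, 88.9 and 88.7 CPM in Con replicates 1 to 3. Replicate 1 was the highest in both groups, and the groups overlapped almost fully. The means were 97.7 ± 21 CPM in Ang and 100.2 ± 19.8 CPM in Con (SD, n = 3 each), with a log2 fold change of -0.04 ± 0.18 and an interval of -0.40 to 0.32 on that scale. It became -0.12 ± 0.16 without Con replicate 2. Exons of TENM1 and STAG2-AS1 on the other strand cover 3.29% of the exon bases of STAG2.

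Cohesin partners of STAG2 were all well above the count floor. RAD21, the kleisin gene, had 242 ± 15.9 CPM in Ang and 235 ± 5.7 CPM in Con (0.05 ± 0.17). SMC3 had 148 ± 18.2 CPM in Ang and 126 ± 3.59 CPM in Con (0.23 ± 0.18). Its groups did not overlap (Ang higher), as in 3.62% of tested genes. SMC1A, which pairs with SMC3 in the ring, had 102 ± 3.44 CPM in Ang and 119 ± 15.9 CPM in Con (-0.22 ± 0.18). All 9 partners were tested, 0 were called and 5 had positive values.

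**Figure D3:**
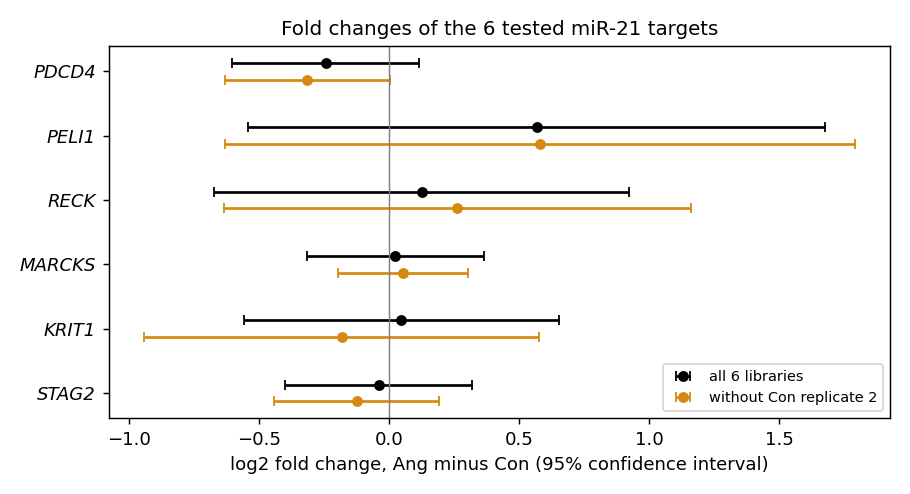
Log2 fold change (Ang minus Con) of the 6 tested members with its 95% confidence interval from edgeR, over all 6 libraries and without Con replicate 2. Each interval includes 0, and PELI1, with the lowest counts of the 6, has the widest.

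The intervals say how large a difference these libraries could have hidden. For PDCD4, MARCKS, RECK, KRIT1 and STAG2 the 95% interval of the fold lay within 2-fold in both directions over all 6 libraries, as it did for 9340 tested genes (64.2%). For PELI1 it did not, and BTG2, outside that fit, is given no interval at its counts. Dropping 1 library took RECK past 2-fold in 5 of the 6 fits, with a lowest bound of 0.47 without Ang replicate 2 and a highest of 2.27 without Ang replicate 3. KRIT1 left that range in 2 of 6, with 0.404 to 1.12 without Ang replicate 3 and 0.949 to 2.49 without Con replicate 1. The intervals of PDCD4, MARCKS and STAG2 stayed within 2-fold in all 6. These intervals cover the counts, with the limit of strand given above.

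**Figure D4:**
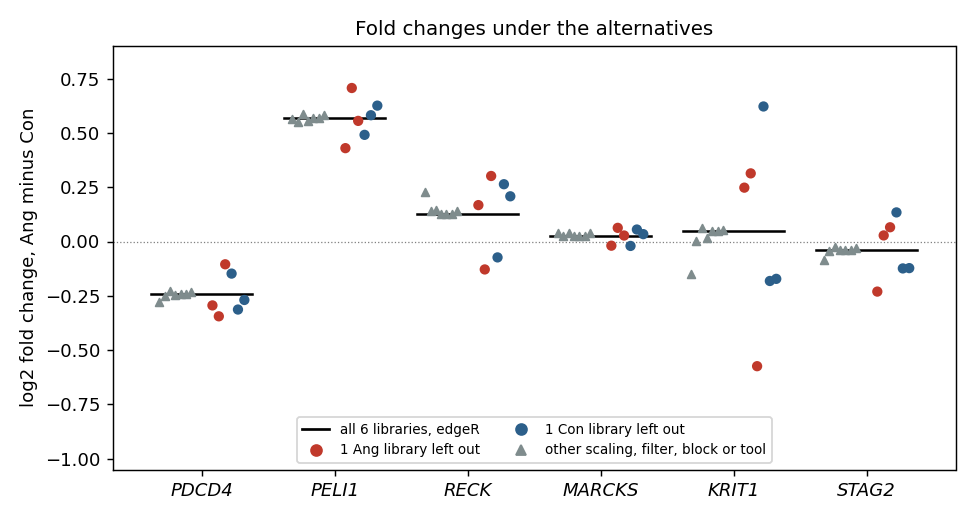
Log2 fold change (Ang minus Con) of the 6 tested members, where black lines are the edgeR values over all 6 libraries, circles leave out 1 library and triangles use another scaling, filter, tool or a replicate block. PDCD4 stays below 0 and PELI1 above 0 in the 13 alternatives, while KRIT1 runs from -0.57 to 0.62.

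Only PDCD4 and PELI1 kept their sign in all 13 alternatives. PDCD4 ran from -0.34 without Ang replicate 2 to -0.10 without Ang replicate 3, and PELI1 from 0.43 without Ang replicate 1 to 0.71 without Ang replicate 2. The smallest adjusted p in any alternative was 0.464 for PDCD4 and 0.808 for PELI1 in the edgeR fit without Con replicate 2. For MARCKS, RECK, KRIT1 and STAG2 the sign changed in 2, 2, 4 and 3 of the alternatives.

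Correlations among the members took both signs. Pearson correlations of log2 CPM over the 6 libraries, which share depth and composition effects, ran from -0.91 for KRIT1 with RECK to 0.65 for PELI1 with MARCKS over the 15 pairs. The gene most like each member among tested genes of at least 10 CPM was GLO1 for PDCD4 (r = 0.984) and ABCB8 for MARCKS (r = 0.994). It was RALGPS2 for PELI1 (r = 0.984), DDX10 for RECK (r = 0.975), UBE2E1 for KRIT1 (r = 0.986) and the pseudogene ENSG00000237550 for STAG2 (r = 0.978). Of 9798 or 9799 genes compared, between 34 and 102 exceeded an r of 0.9 with each member. Each r named is the highest of that many over only 6 libraries, where high values can arise by random variation. The genes named are therefore not read as co-expressed with the members.

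Further genes reported as miR-21 targets were read from a list of 48, of which 45 were found and 41 tested. None was called, 24 of 41 had positive values and the median log2 fold change was 0.04, beside -0.01 over all tested genes. With Con replicate 2 left out, 28 of 42 were positive with a median of 0.12, 4 had an unadjusted p under 0.05 and 0 were called in edgeR. In that fit 7374 of 14867 tested genes were positive, 1633 had an unadjusted p under 0.05, and the median was -0.0032 over all of them and 0.07 over genes with a 3′ UTR and no site. TPM1, a tropomyosin gene, had 62.2 ± 8.36 CPM in Ang and 60.4 ± 12.4 CPM in Con, with 21.4% of its exon bases under exons on the other strand. SPRY2, a brake on receptor tyrosine kinase signalling, had 10.9 ± 4.54 CPM in Ang and 13.8 ± 5.25 CPM in Con (-0.33 ± 0.36).

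RP2, a gene linked to retinitis pigmentosa that carries an 8mer, had the smallest unadjusted p of the 41 and the only such value under 0.05 (0.0117, adjusted p 0.999, edgeR's quasi-likelihood test). Over all tested genes 494 of 14547 (3.4%) had an unadjusted p under 0.05 in edgeR. RP2 had 9.1, 11.9 and 11.6 CPM in Ang replicates 1 to 3, against 21.1, 21.8 and 14.5 CPM in Con replicates 1 to 3. The groups did not overlap, as for 4.54% of tested genes with lower values in Ang. As RP2 was named for its p, this separation is not separate evidence of a difference. The log2 fold change of RP2 was -0.83 ± 0.33. On leaving out 1 library it ran from -0.99 without Con replicate 3 to -0.72 without either Ang replicate 1 or Con replicate 2.

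The next genes by p differed in sign. E2F1, a cell cycle transcription factor gene, had 15.9 ± 4.25 CPM in Ang and 10.4 ± 5.12 CPM in Con (0.60 ± 0.35). NFIB, a transcription factor gene, had 6.97 ± 3.19 CPM in Ang and 11.1 ± 5.37 CPM in Con (-0.66 ± 0.41), and SASH1, a scaffold gene often lost in tumours, had 18.8 ± 3.8 CPM in Ang and 13.2 ± 5.52 CPM in Con (0.49 ± 0.32). APAF1, the apoptosome gene, had 13.2 ± 3.27 CPM in Ang and 18.3 ± 3.73 CPM in Con (-0.47 ± 0.32). TGFBR2, the type II TGF-beta receptor gene, had 84.9 ± 7.32 CPM in Ang and 71.6 ± 13.5 CPM in Con (0.24 ± 0.19). The library ranges overlapped for each of these genes. On leaving out 1 library, E2F1 ran from 0.24 without Con replicate 1 to 0.95 without Con replicate 2, and NFIB from -1.01 without Con replicate 2 to -0.28 without Con replicate 1.

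Over the partners of all 7 members, 49 of 53 were tested, 0 were called, 30 had positive values and the median was 0.05, beside 7151 positive values among 14547 tested genes. Leaving out Con replicate 2 gave 31 positive values among 50 partners and a median of 0.05, with 0 called. In edgeR 5 of the 50 then had an unadjusted p under 0.05, beside 1633 of 14867 tested genes. With all libraries this held for 0 partners and for 494 of 14547 tested genes. In the fit without Con replicate 2, EIF4G1 was at 0.34 ± 0.12 (adjusted p 0.178 in edgeR) and ADAM10 at 0.45 ± 0.15 (adjusted p 0.177 in edgeR). IRAK1 was at 0.54 ± 0.21, MMP14 at 0.28 ± 0.11 and CCM2 at 0.51 ± 0.34, each higher than with all libraries. Others were lower than with all libraries, among them EIF4A2 at 0.25 ± 0.14 and SMC3 at 0.22 ± 0.14. So were CNOT7 at -0.26 ± 0.19, PDCD10 at -0.27 ± 0.22 and ITGB1BP1 at -0.16 ± 0.10. None of these passed the threshold.

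VMP1, whose 3′ end contains the miR-21 hairpin on chromosome 17, was read beside the targets, since MIR21 itself was not found among the gene IDs. The level of VMP1 is not a measure of miR-21. VMP1 had 64.3, 58.8 and 67.6 CPM in Ang replicates 1 to 3, against 72.9, 77.4 and 66.1 CPM in Con replicates 1 to 3. The Ang values lay at the lower end, with 1 library inside the Con range. The log2 fold change of VMP1 was -0.19 ± 0.19 (unadjusted p 0.333, adjusted p 0.999 in edgeR).

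**Figure D5:**
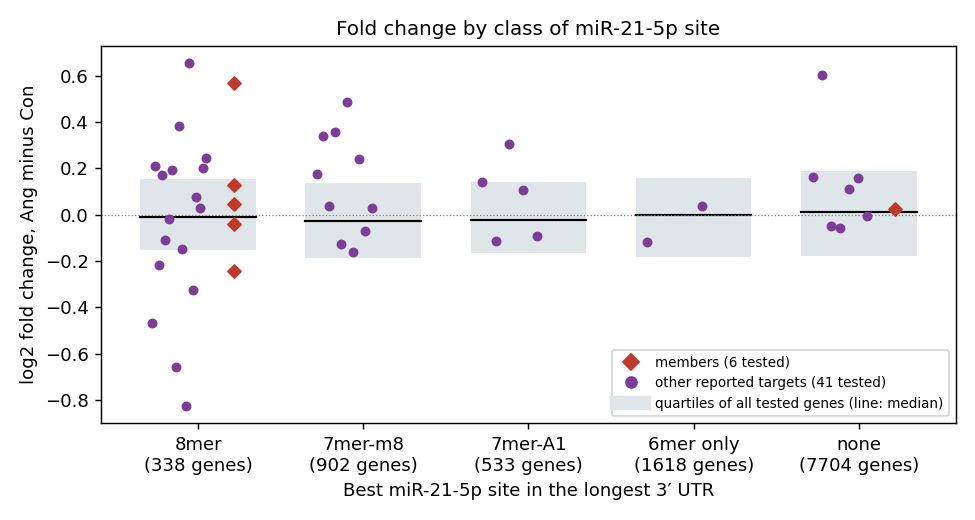
Log2 fold change (Ang minus Con) by the best miR-21-5p site in the longest 3′ UTR. Grey boxes are the quartiles and black lines the median of all tested genes of a class, diamonds are the 6 tested members and circles the 41 other reported targets; the class medians lie between -0.03 and 0.01.

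Grouped by the best site in the 3′ UTR, genes lay close to 0 in each class. The median log2 fold change was -0.01 over 338 tested genes with an 8mer, -0.03 over 902 with a 7mer-m8 and -0.02 over 533 with a 7mer-A1. It was -0.0033 over 1618 genes with a 6mer alone and 0.01 over 7704 genes with none, and 0 genes were called in any class. Values were positive in 49.1% of genes with an 8mer, 45.2% with a 7mer-m8, 46% with a 7mer-A1 and 49.5% with a 6mer alone. The share was 52.2% of genes with no match. On leaving out Con replicate 2 the medians were 0.0039 for 8mer, -0.003 for 7mer-m8 and 0.027 for 7mer-A1 genes. They were 0.03 for genes with a 6mer alone and 0.07 for genes with no match. The classes were not matched for UTR length, GC content or level. The 5 tested members with an 8mer ran from -0.24 (PDCD4) to 0.57 (PELI1), beside quartiles of -0.15 and 0.15 over all tested 8mer genes, and 9 of the 17 other reported targets with an 8mer had positive values.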

How the data were processed

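For each of the 6 libraries the authors deposited a file of unnormalized counts, whole numbers by Ensembl ID. HTSeq 0.9.1, DESeq 1.39.0 and GRCh38 are named in the submitters' processing notes. Aligner, annotation release and strand setting were not given in the sources used here, and the labels' protocols name no step that marks strand. Of 28979 IDs, 22323 had a gene symbol and 28192 were in GENCODE 29 (GRCh38), which gave coordinates, exons and 3′ UTRs. No row lacked a gene.

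From the deposited counts, genes were kept by filterByExpr, scaled by TMM and tested with edgeR 4.0.16 (robust quasi-likelihood, Ang against Con, no replicate term) in R 4.3.3, with Benjamini-Hochberg adjustment over 14547 genes at a threshold of 0.05. SE is the log2 fold change over the root of F. The F of a gene uses an error moderated over all tested genes, so SE and interval may understate or overstate the spread of its own libraries. On simulated counts for these 14547 genes 44.9% of 2-fold changes and 90% of 4-fold changes were recovered, and 4.42% of calls were false. The simulation gave each gene the same dispersion in all libraries. It does not model a library that stands apart, as Con replicate 2 does, so these rates may not hold for the data. No 2 libraries were identical (chi-square per gene 3.6 to 12.8 within groups). Alternatives used DESeq2 1.42.0 and limma 3.58.1. Members and lists were chosen with earlier results of these data known. Named from the lists were the 6 targets of smallest p plus textbook targets such as TPM1 and SPRY2, and per member the most abundant partner and the 2 of smallest p. Some genes that this rule names are not reported here.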

Additional observations from a re-analysis of the deposited data

How the results depend on the processing

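Members called, other reported targets called and partner genes called stayed at 0 in all 13 alternatives: RLE scaling, keeping every gene with a count, keeping genes that reach 1 CPM in 3 libraries, the replicate block, DESeq2, limma-voom, limma-voom with library quality weights, and each library left out. Over all genes the count was 1 (MTND6P4) with quality weights and ran between 0 and 40 over the 6 fits that each drop a library: 40 without Con replicate 2 and 1 (RN7SL1) without Con replicate 1, and 0 in the others; the cause was not tested. MTND6P4 and RN7SL1 were named after their values were seen. The replicate block gave 0 genes. Deviations from group means in same-numbered Ang and Con libraries correlated at 0.037, 0.0675 and 0.0356, against -0.0697 to 0.0302 for other pairs. Same-numbered pairs thus ranked highest, though each value was small. The labels do not say that a number marks a shared culture, so the main fit has no replicate term and the block is an alternative. Of 78 alternative values for the members, 67 kept their sign and 11 changed it, none past the threshold, and of 390 for the other genes that the naming rule takes and BBIP1, 379 kept it. Genes with few counts, such as BTG2 and PELI1, are limited by those counts and by the limit of strand.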
